A study of Mus musculus with 4 samples.

Results

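Interferon-stimulated and RNA-sensing genes were followed in sorted testis cells after deletion of *Cnot3* in germ cells. A list of 38 genes was taken by symbol from the 54920 genes in the count files, and every one of the 38 was found. They comprise transcription factors of the interferon response, cytosolic RNA sensors with the kinase PKR, and the antiviral effectors that interferon induces. The libraries were made from ID4-EGFP+ cells, a population enriched for spermatogonial stem cells (SSCs), sorted from mouse testes at postnatal day 8. All pups received 4-OHT from day 1 to day 3. The 2 control libraries, whose labels read wild-type, came from *Cnot3* flox/flox; *Id4-eGfp* pups without Cre. The 2 *Cnot3*-cKO libraries came from pups that also carried *Ddx4*-creER, in which the germ cell promoter of *Ddx4* drives a Cre that 4-OHT activates. Floxed *Cnot3* alleles, *Id4-eGfp* and 4-OHT were therefore common to both groups, and Cre was not. CNOT3 is a subunit of the CCR4-NOT complex, which shortens the poly(A) tails of mRNAs.

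Cells detect RNA of viruses, and RNA of their own with similar structure, through the cytosolic helicases RIG-I and MDA5. These signal through MAVS to the kinase TBK1 and the factor IRF3, which switch on interferon genes. Secreted interferon binds its receptor on the same or neighbouring cells, and the kinases JAK1 and TYK2 activate a complex that contains STAT2 and IRF9. This complex binds the interferon-stimulated response element (ISRE) in the promoters of many genes, among them those of the sensors themselves.

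The promoters are shown because the ISRE links the sequence of a gene to this pathway. The ISRE core was searched as GAAA, any 2 bases and again GAAA, on both strands, in RefSeq promoter windows of GRCm38.p6, each running from 250 bases before to 50 bases after a start site. Matches may overlap each other, since the letters repeat. The table held windows for 30 of the 38 genes, and 16 of them (53.3%) had at least 1 match. Of all 27025 genes in the table, 3.99% had a match, and so did 3.44% of its 32851 windows. *Mx1*, *Mx2*, *Oas2*, *Ifi27*, *Dhx58*, *Rtp4*, *Usp18* and *Zbp1* had no entry. Below are the 200 bases before the start site of 4 genes with changes described later, of *Ifit3b*, the close copy of *Ifit3*, and of *Isg15*. They are written 5′ to 3′ on the strand of the gene, with matches in capitals on whichever strand they were found.
Gbp3, chr3:142559844-142560043, forward strand: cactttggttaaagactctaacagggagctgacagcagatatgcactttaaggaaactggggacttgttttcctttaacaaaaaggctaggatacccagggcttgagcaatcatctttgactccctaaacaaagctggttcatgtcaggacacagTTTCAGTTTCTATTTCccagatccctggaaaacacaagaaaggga
Rsad2, chr12:26456453-26456652, reverse strand: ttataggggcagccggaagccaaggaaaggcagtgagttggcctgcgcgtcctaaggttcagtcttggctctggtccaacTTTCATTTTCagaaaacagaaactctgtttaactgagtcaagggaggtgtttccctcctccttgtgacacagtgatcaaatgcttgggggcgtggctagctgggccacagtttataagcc
Ifit3, chr19:34583329-34583528, forward strand: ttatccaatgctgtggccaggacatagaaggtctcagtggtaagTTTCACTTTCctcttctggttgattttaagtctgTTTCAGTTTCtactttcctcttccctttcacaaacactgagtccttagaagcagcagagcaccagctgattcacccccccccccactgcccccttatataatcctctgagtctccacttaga
Ifit3b, chr19:34607757-34607956, forward strand: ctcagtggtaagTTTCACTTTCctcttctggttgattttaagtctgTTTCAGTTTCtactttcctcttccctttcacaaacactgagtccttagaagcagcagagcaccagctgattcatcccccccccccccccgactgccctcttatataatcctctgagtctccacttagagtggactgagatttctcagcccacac
Isg15, chr4:156200819-156201018, reverse strand: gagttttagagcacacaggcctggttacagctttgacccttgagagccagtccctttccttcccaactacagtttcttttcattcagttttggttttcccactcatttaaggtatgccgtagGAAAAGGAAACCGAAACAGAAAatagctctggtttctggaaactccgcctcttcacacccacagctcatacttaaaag
Oasl2, chr5:114896734-114896933, forward strand: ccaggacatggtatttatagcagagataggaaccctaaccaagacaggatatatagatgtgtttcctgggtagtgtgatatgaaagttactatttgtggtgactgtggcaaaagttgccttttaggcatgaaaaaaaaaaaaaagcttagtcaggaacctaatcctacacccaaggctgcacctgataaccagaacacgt
In *Gbp3* a pair of overlapping matches lay at -45 to -36 and -39 to -30 from the start site. *Ifit3* and *Ifit3b* held the same pair of matches with the same spacing, at -156 and -122 in *Ifit3* and at -188 and -154 in *Ifit3b*. *Isg15* had 3 overlapping matches. The window of *Oasl2* had no match, which says only that these letters do not occur there. In *Ddx58*, *Ifih1* and *Eif2ak2*, which encode RIG-I, MDA5 and PKR, the match lay just after the start site, from 3 to 12, 33 to 42 and 19 to 28, and 30 bases around each are given.
Ddx58, chr4:40239803-40239832, reverse strand: ctgaggcagTTTCGATTTCctatggccagc
Ifih1, chr2:62646206-62646235, reverse strand: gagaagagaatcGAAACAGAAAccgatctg
Eif2ak2, chr17:78882535-78882564, reverse strand: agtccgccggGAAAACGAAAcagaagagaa
A match is a description of the sequence and no evidence of binding.

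**Figure D1:**
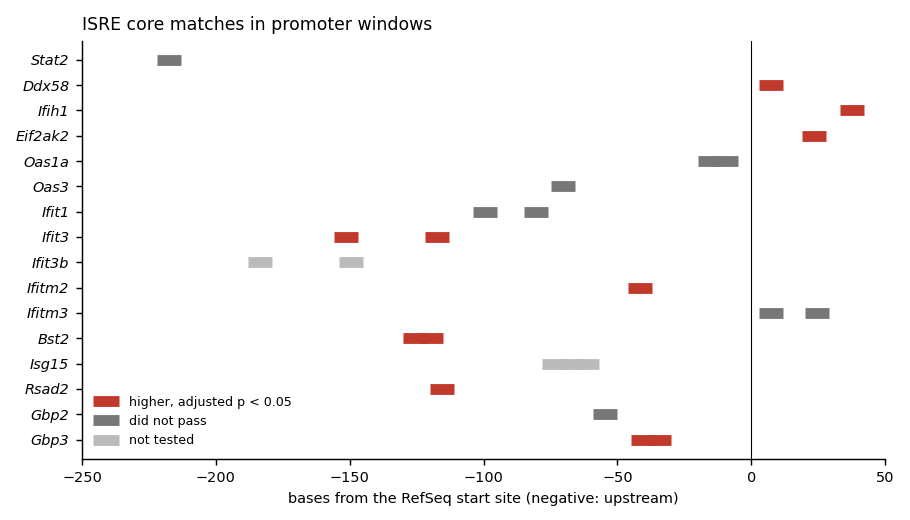
Position of each ISRE core match (GAAA, any 2 bases, GAAA, on either strand) in the promoter windows of the 16 genes that had one, in bases from the RefSeq start site (horizontal axis). Bars span the match and colour gives the result of the expression test. Most matches lie before the start site, and *Ddx58*, *Ifih1*, *Eif2ak2* and *Ifitm3* have theirs just after it.

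Depth was greater in controls, with 40957899 and 43378493 reads assigned to genes, than in *Cnot3*-cKO libraries, with 22192964 and 28019626. Levels are given as CPM, the usual depth-normalised count computed on a TMM-scaled library size. Of all genes, 23952 had enough reads to be tested with edgeR. Those tested included 35 of the 38 genes. *Isg15*, *Ifit3b* and *Ifi44* fell below the expression filter. Of the 35, 31 passed this filter in both groups, *Oas2*, *Ifit1* and *Rtp4* only through their *Cnot3*-cKO reads, and *Ifitm3* only through its control reads. In a design of 2 against 2, exact permutation of a single gene allows no p smaller than 0.333, so the adjusted p-values rest on the dispersion fitted across genes. The study describes biological replicates, more per group than the libraries analysed here. The labels do not tie libraries to animals, so p-values are taken to measure only the spread between these samples. *Cnot3* itself had 58.6 and 50.2 CPM in controls and 19.2 and 19.9 CPM in *Cnot3*-cKO cells (log2 fold change -1.48, SE 0.13, adjusted p = 1.48e-05).

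In *Cnot3*-cKO cells, 16 of the 35 tested genes rose and 2 fell at an adjusted p under 0.05, against 11.1% and 9.46% of all tested genes. A gene is called when its adjusted p is under 0.01 and its fold change above 2. By this rule 9 genes were called higher, against 4.03% of all tested genes, and 1 was called lower, against 0.735%. The 9 were *Ddx58*, *Ifih1*, *Oas2*, *Ifit2*, *Ifit3*, *Rsad2*, *Gbp3*, *Ifi35* and *Rtp4*, and the 1 was *Oasl2*. The *Cnot3*-cKO pair was entirely above the control pair in 20 of the 35 genes and entirely below it in 6, while 30.5% and 28.6% of all tested genes did so. The median log2 fold change of the 35 was 0.68 and that of all tested genes 0.01. Among the 31 genes that passed the filter in both groups, 14 rose, 2 fell, 7 were called higher and 1 lower, and the median was 0.58. Over all 20400 tested genes that passed it in both groups these shares were 12%, 10.9%, 4.54% and 0.814%, and the median was -0.01. When edgeR tested instead whether the change exceeded 2-fold (glmTreat), 0 genes reached an adjusted p under 0.01. At an unadjusted p under 0.05, 8 were then higher and 1 lower, and the smallest adjusted p was 0.0223, for *Gbp3*.

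**Figure D2:**
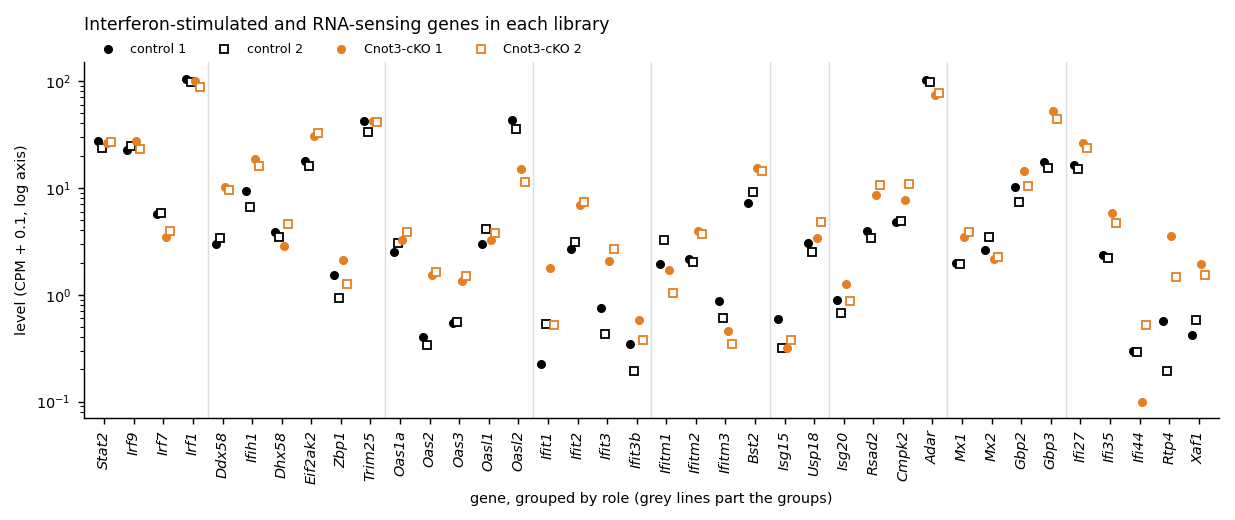
Level of the 38 genes in each of the 4 libraries, in CPM plus 0.1 on a log axis, with genes grouped by role along the horizontal axis. Each symbol is 1 library. The orange *Cnot3*-cKO symbols stand above both black control symbols in *Ddx58*, *Gbp3* and *Rsad2* and below them in *Oasl2* and *Adar*.

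Of the 4 transcription factors of the interferon response, none passed the test. *Stat2*, a subunit of the complex that binds the ISRE, had 27.1 and 23.3 CPM in controls and 26.4 and 26.5 CPM in *Cnot3*-cKO cells. Its partner *Irf9* had 22.4 and 24.6 CPM in controls against 27.5 and 23.2 CPM. The groups overlapped in both genes, with log2 fold changes of 0.07 (SE 0.14, adjusted p = 0.792) and 0.11 (SE 0.14, adjusted p = 0.678). *Irf1*, a factor that interferon gamma induces, had 105 and 98.2 CPM in controls and 99.6 and 87.0 CPM in *Cnot3*-cKO cells, and overlapped as well. *Irf7*, which amplifies interferon production, had 5.59 and 5.68 CPM in controls and 3.35 and 3.81 CPM in *Cnot3*-cKO cells. Both *Cnot3*-cKO libraries were lower, and the log2 fold change was -0.65 (SE 0.24, adjusted p = 0.0783). Per kilobase of exon, *Irf1* had the highest level of the 38 genes, 25.6 CPM per kilobase in controls and 23.5 in *Cnot3*-cKO cells.

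The RNA sensors that signal through MAVS rose. *Ddx58*, which encodes RIG-I, a sensor of RNA with a triphosphate end, had 2.88 and 3.26 CPM in controls and 10.1 and 9.43 CPM in *Cnot3*-cKO cells. The groups were far apart relative to their spread, and the log2 fold change was 1.67 (SE 0.22, adjusted p = 0.000318), a 3.18-fold increase. *Ifih1*, which encodes MDA5, a sensor of long double-stranded RNA, had 9.21 and 6.56 CPM in controls and 18.5 and 16.1 CPM in *Cnot3*-cKO cells. It was 2.19-fold higher (log2 fold change 1.13, SE 0.20, adjusted p = 0.00201). *Eif2ak2* encodes PKR, a kinase that binds double-stranded RNA and stops translation by phosphorylating eIF2α. It had 17.9 and 15.8 CPM in controls and 30.2 and 32.4 CPM in *Cnot3*-cKO cells, and rose 1.86-fold (log2 fold change 0.89, SE 0.14, adjusted p = 0.00091). No library of one group reached the range of the other in these 3 genes. *Dhx58*, which encodes LGP2, a relative of both helicases without signalling domains, had 3.75 and 3.38 CPM in controls and 2.78 and 4.47 CPM in *Cnot3*-cKO cells, so the controls lay between the *Cnot3*-cKO libraries. *Trim25*, a ubiquitin ligase that assists RIG-I, had 42.0 and 33.3 CPM against 41.9 and 41.2 CPM, and *Zbp1*, a sensor of Z-form nucleic acid, had 1.44 and 0.832 CPM against 2.03 and 1.15 CPM. Their groups overlapped, and the 3 adjusted p-values lay between 0.514 and 0.955.

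The OAS family did not move together. OAS enzymes make oligoadenylates, an antiviral signal, on contact with double-stranded RNA. *Oas2* had 12 and 10 control reads and 32 and 44 *Cnot3*-cKO reads, that is 0.298 and 0.238 CPM against 1.41 and 1.54 CPM. It rose with a log2 fold change of 2.45 (SE 0.56, adjusted p = 0.00822) from few reads. *Oas3* had 0.447 and 0.452 CPM in controls and 1.24 and 1.40 CPM in *Cnot3*-cKO cells (log2 fold change 1.54, SE 0.52, adjusted p = 0.0535). It did not pass, although the groups were apart. *Oas1a* had 2.41 and 2.92 CPM against 3.13 and 3.77 CPM (adjusted p = 0.415), and it shares 57.6% of its 50-base transcript windows with other genes, mostly *Oas1g*, so that its reads are uncertain. The OAS-like genes *Oasl2* and *Oasl1* are neighbours on chromosome 5 of GRCm38, at 114896936 to 114912234 and 114923240 to 114937915 on the forward strand. *Oasl2* had 1735 and 1485 control reads and 336 and 321 *Cnot3*-cKO reads, or 43.1 and 35.3 CPM against 14.8 and 11.2 CPM. It fell to 0.331 of the control level (log2 fold change -1.59, SE 0.17, adjusted p = 6.11e-05). *Oasl1* had 2.86 and 3.99 CPM in controls and 3.18 and 3.67 CPM in *Cnot3*-cKO cells, with the *Cnot3*-cKO libraries between the controls. In controls *Oasl2* was the highest of the 5 genes per kilobase, at 6.15 CPM per kilobase, and in *Cnot3*-cKO cells it was at 2.04, beside 1.83 for *Oas1a*. With *Oasl2* in the sum, the level of the 5 genes was 49.1 and 42.9 CPM in controls and 23.8 and 21.6 CPM in *Cnot3*-cKO cells.

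IFIT proteins bind viral RNA ends and block its translation, and their genes lie together on chromosome 19. *Ifit2* had 2.56 and 3.02 CPM in controls and 6.80 and 7.33 CPM in *Cnot3*-cKO cells, and was 2.53-fold higher (log2 fold change 1.34, SE 0.24, adjusted p = 0.00226). *Ifit3* had 26 and 14 control reads and 45 and 74 *Cnot3*-cKO reads, or 0.646 and 0.333 CPM against 1.99 and 2.58 CPM. Its log2 fold change was 2.22 (SE 0.47, adjusted p = 0.00582). *Ifit3* shares 51.2% of its transcript windows with *Ifit3b*, whose promoter matches were shown above, so reads may have been split between them. *Ifit3b* had 10 and 4 control reads and 11 and 8 *Cnot3*-cKO reads. It is given outside the rule for named genes, having been chosen after its values were seen. *Ifit1* had 0.124 and 0.428 CPM in controls and 1.68 and 0.419 CPM in *Cnot3*-cKO cells. The groups overlapped, since 1 *Cnot3*-cKO library matched the higher control. The adjusted p was 0.122, and it was 0.00469 without the second *Cnot3*-cKO library and 0.0442 without the second control.

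Of 4 genes for membrane proteins that restrict viruses, *Bst2* and *Ifitm2* rose and the others did not pass. *Bst2* encodes tetherin, which holds budding virions at the cell surface. It had 7.18 and 8.98 CPM in controls and 15.4 and 14.4 CPM in *Cnot3*-cKO cells and rose 1.84-fold (log2 fold change 0.88, SE 0.19, adjusted p = 0.00606). The IFITM proteins hinder the entry of viruses, and *Ifitm1* and *Ifitm3* are also known as genes of early germ cells. *Ifitm2* had 2.04 and 1.90 CPM in controls and 3.84 and 3.60 CPM in *Cnot3*-cKO cells (log2 fold change 0.92, SE 0.29, adjusted p = 0.0428). This rise did not pass the test in any fit that left out 1 library (adjusted p from 0.0621 to 0.129) or in DESeq2 (0.0972). *Gm45717* lies over 40.9% of the exon bases of *Ifitm2* on the same strand, so its count is uncertain too. *Ifitm1* had 1.84 and 3.16 CPM in controls and 1.59 and 0.943 CPM in *Cnot3*-cKO cells, and *Ifitm3* had 0.770 and 0.499 CPM against 0.353 and 0.244 CPM. Both *Cnot3*-cKO libraries were below both controls in these 2 genes, but the adjusted p-values were 0.111 and 0.31. That of *Ifitm1* was 0.0151 without the first control and 0.0289 without the first *Cnot3*-cKO library.

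The ISG15 system was given as values after they were seen, as it is outside the rule for named genes. *Isg15*, a ubiquitin-like protein joined to others during the interferon response, had 20 and 9 control reads and 5 and 8 *Cnot3*-cKO reads. It was not tested, and the groups overlapped in CPM. *Usp18*, which removes ISG15, had 2.93 and 2.42 CPM in controls and 3.27 and 4.71 CPM in *Cnot3*-cKO cells (adjusted p = 0.196).

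Among effectors that act on nucleotides or RNA, *Rsad2* and *Cmpk2* rose and *Adar* fell. *Rsad2* encodes viperin, which makes a chain-terminating nucleotide, and *Cmpk2* encodes a mitochondrial nucleotide kinase. They are neighbours on chromosome 12, at 26442746 to 26456452 on the reverse strand and 26469204 to 26479837 on the forward strand. *Rsad2* had 3.85 and 3.33 CPM in controls and 8.43 and 10.5 CPM in *Cnot3*-cKO cells (log2 fold change 1.40, SE 0.23, adjusted p = 0.00117). *Cmpk2* had 4.69 and 4.75 CPM in controls and 7.64 and 10.7 CPM in *Cnot3*-cKO cells (log2 fold change 0.96, SE 0.23, adjusted p = 0.011). In both genes the second *Cnot3*-cKO library was the highest, and without it the adjusted p of *Cmpk2* was 0.12. *Adar* encodes ADAR1, which converts adenosine to inosine in double-stranded RNA and so keeps RNA of the cell from activating MDA5 and PKR. It had 102 and 97.3 CPM in controls and 74.1 and 77.2 CPM in *Cnot3*-cKO cells, a level of 0.758 of the control (log2 fold change -0.40, SE 0.09, adjusted p = 0.00934). The fall did not pass without the first *Cnot3*-cKO library (adjusted p = 0.0917) or when libraries were scaled to germ cell genes (0.146). The gene *Chrnb2* lies on the opposite strand over 16.8% of the exon bases of *Adar*, and the counting is not stated to use strand. *Isg20*, an RNA exonuclease, was between 0.570 and 1.15 CPM in the 4 libraries. It is outside the rule for named genes and was added after its values were seen.

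**Figure D3:**
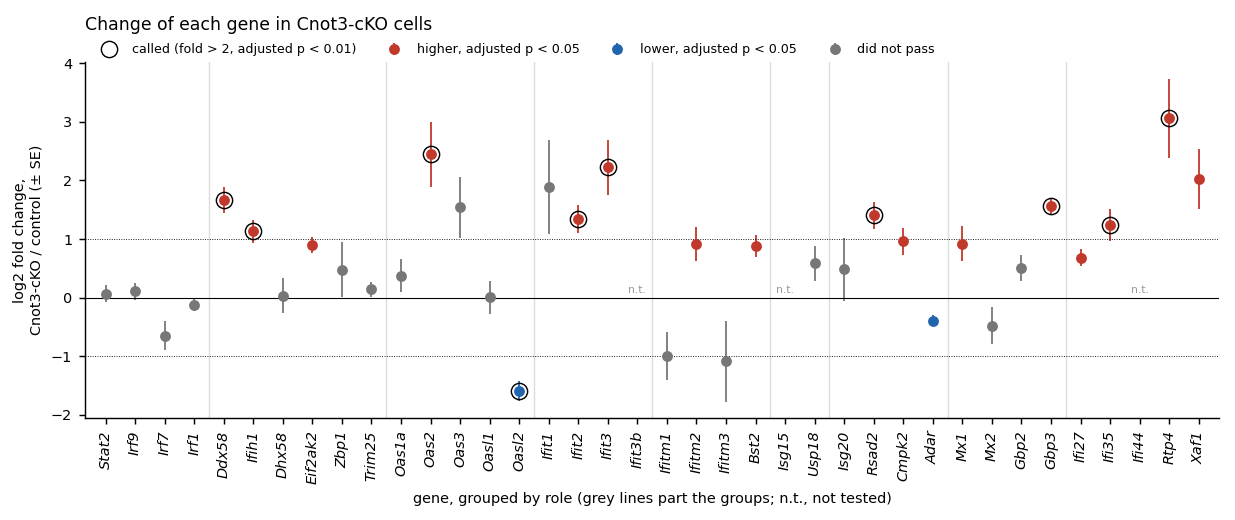
Log2 fold change of each gene, *Cnot3*-cKO against control, with its standard error as a bar and genes grouped by role. Circles mark called genes, dotted lines a 2-fold change, and n.t. a gene that was not tested. *Rtp4* and *Oas2*, which passed the expression filter only through their *Cnot3*-cKO reads, have the highest values among called genes, and *Oasl2* has the lowest.

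Of the 4 GTPases, *Gbp3* and *Mx1* rose. Guanylate-binding proteins coat intracellular microbes and are induced mostly by interferon gamma. *Gbp3* had 17.3 and 15.1 CPM in controls and 51.8 and 44.2 CPM in *Cnot3*-cKO cells, a 2.96-fold increase (log2 fold change 1.56, SE 0.14, adjusted p = 1.65e-05). It had the smallest adjusted p of the 35 genes and, at 14.7 CPM per kilobase in *Cnot3*-cKO cells, was among the 4 highest per kilobase with *Irf1*, *Ifi27* and *Bst2*. *Gbp2* had 10.1 and 7.25 CPM in controls and 14.4 and 10.3 CPM in *Cnot3*-cKO cells, with the lower *Cnot3*-cKO library just above the higher control (adjusted p = 0.139). It passed without the first control (0.0101) and without the second *Cnot3*-cKO library (0.0398). *Mx1* and *Mx2* encode dynamin-like proteins that trap viral nucleocapsids. *Mx1* had 1.89 and 1.85 CPM in controls and 3.35 and 3.74 CPM in *Cnot3*-cKO cells (log2 fold change 0.92, SE 0.30, adjusted p = 0.045). It did not pass in any fit that left out 1 library (adjusted p from 0.069 to 0.162) or in DESeq2 (0.104). *Mx2* had 2.53 and 3.40 CPM in controls and 2.07 and 2.16 CPM in *Cnot3*-cKO cells (adjusted p = 0.323).

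Of 5 further interferon-induced genes, the 4 that could be tested rose. Among them, *Rtp4* passed the expression filter only through its *Cnot3*-cKO reads. *Ifi27*, which encodes a mitochondrial membrane protein, had 16.2 and 14.7 CPM in controls and 26.2 and 23.4 CPM in *Cnot3*-cKO cells (log2 fold change 0.68, SE 0.15, adjusted p = 0.00683). Its adjusted p was 0.061 without the first *Cnot3*-cKO library. *Ifi35* had 2.23 and 2.12 CPM in controls and 5.74 and 4.54 CPM in *Cnot3*-cKO cells (log2 fold change 1.24, SE 0.28, adjusted p = 0.00726), and *Gm11626* lies opposite to 16.8% of its exon bases. *Rtp4*, a Golgi chaperone of receptors, had 19 and 4 control reads and 78 and 39 *Cnot3*-cKO reads, or 0.472 and 0.0951 CPM against 3.44 and 1.36 CPM. All *Cnot3*-cKO values were above the controls, with a log2 fold change of 3.07 (SE 0.68, adjusted p = 0.00695), while the control libraries differed from each other as well. *Gm45338* lies over 13.9% of the exon bases of *Rtp4* on the same strand. *Xaf1*, which antagonizes an inhibitor of apoptosis, had 13 and 20 control reads and 42 and 41 *Cnot3*-cKO reads, or 0.323 and 0.475 CPM against 1.85 and 1.43 CPM (log2 fold change 2.02, SE 0.52, adjusted p = 0.0153). Without the first *Cnot3*-cKO library its adjusted p was 0.0502. *Ifi44*, also outside that rule, had between 0 and 12 reads.

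Most of the 38 genes had low control levels, both among those that rose and among the others. In controls 11 of the 38 genes were under 1 CPM and 9 were at 10 CPM or more, and in *Cnot3*-cKO cells these numbers were 5 and 12. The 8 tested genes under 1 CPM include *Oas2*, *Ifit1* and *Rtp4*, which could be tested only through their *Cnot3*-cKO reads, and *Ifitm3*, tested only through its control reads, so their share is not compared with that of other genes. Between 1 and 4 CPM 4 of 13 genes were called higher, against 7.17% of all 4753 tested genes at this level. Between 4 and 16 CPM it was 1 of 6, against 9.26% of 4049, and between 16 and 64 CPM 1 of 6, against 2.68% of 4669. The 2 genes above 64 CPM, *Irf1* and *Adar*, were not called.

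**Figure D4:**
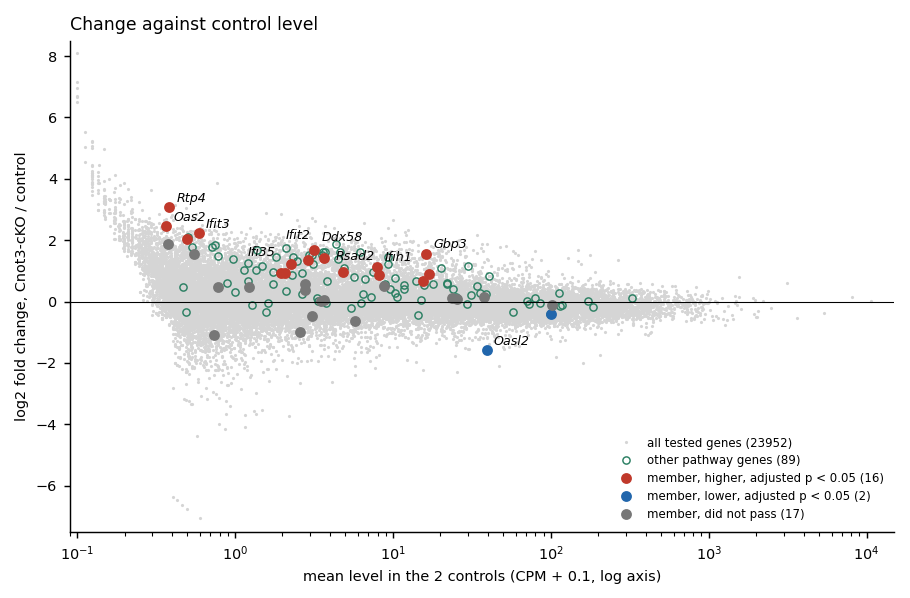
Log2 fold change, *Cnot3*-cKO against control, plotted against the mean level of the 2 controls in CPM plus 0.1 on a log axis, for all tested genes (grey), other interferon pathway genes (open circles) and the 35 genes described here (filled circles). Called genes are named. Most red circles lie left of 10 CPM, with *Ifi27*, *Gbp3* and *Eif2ak2* to their right, and *Oasl2* lies apart below.

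Promoter matches were found in genes that rose and in genes that did not. Of the genes in the RefSeq table, 8 of 12 that rose, 0 of 2 that fell, 6 of 13 that did not pass and 2 of 3 that were not tested had an ISRE core match. *Stat2*, *Oas1a* and *Gbp2* had a match and did not pass, and *Ifit2*, *Cmpk2*, *Ifi35* and *Xaf1* rose without one in these windows. The letters TTCNNNGAA, the core of the GAS element of genes that interferon gamma induces, occurred in 9 of the 30 genes (30%), and 9.55% of all genes in the table had them. Those 9 included *Irf1*, *Bst2*, *Eif2ak2* and *Adar*. In *Bst2* this match lay at -136 to -128 and overlapped an ISRE core match at -130 to -121.

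The rest of the pathway was read from 104 further genes, of which 89 were tested. Among them 20 were called higher and 0 lower, 42 rose and 2 fell at an adjusted p under 0.05, and the median log2 fold change was 0.58. Of all tested genes 4.03% were called higher, 0.735% were called lower, 11.1% rose and 9.46% fell. The pathway genes were not split by whether they passed the filter in both groups. Their counts therefore include genes tested only through their *Cnot3*-cKO reads. At an unadjusted p under 0.05 edgeR likewise found 0 of them lower by more than 2-fold, and DESeq2 called 0 lower. Against a fold change of 2 (glmTreat), 0 of them were called higher, with 19 at an unadjusted p under 0.05. Of 13 interferon genes listed, 12 had 0 reads in all 4 libraries, *Ifnb1* and *Ifng* among them. A count of 0 allows up to 3 reads per library, as far as counting error goes. *Ifnk* had 0 and 4 control reads and 1 and 7 *Cnot3*-cKO reads. None could be tested.

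Of 10 receptor and JAK-STAT genes, 2 were called higher, against 4.03% of all tested genes. *Ifnar2*, a chain of the type I interferon receptor, had 4.20 and 4.66 CPM in controls and 13.0 and 9.99 CPM in *Cnot3*-cKO cells (log2 fold change 1.37, SE 0.22, adjusted p = 0.000968). The other chain, *Ifnar1*, had 189 and 179 CPM against 160 and 166 CPM and did not pass (adjusted p = 0.171). *Il10rb*, a chain of the interferon lambda receptor, had a log2 fold change of 1.10 (adjusted p = 0.00577). *Gm21970* lies over 9.46% of the exon bases of *Ifnar2* and 14.9% of those of *Il10rb* on the same strand. *Ifngr2*, of the interferon gamma receptor, rose by 0.58 on the log2 scale (adjusted p = 0.0143), and *Ifngr1* had 32.5 and 38.8 CPM against 46.7 and 39.6 CPM (adjusted p = 0.177). *Tyk2* fell (log2 fold change -0.40, SE 0.10, adjusted p = 0.0145), while *Jak1* and *Jak2* did not pass. Without the second *Cnot3*-cKO library, *Tyk2* (adjusted p = 0.0861) and *Ifngr2* (0.2) did not pass, and *Tyk2* did not pass with germ cell scaling either (0.15).

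Most adaptors and kinases between the sensors and the interferon genes did not pass. *Mavs*, the adaptor of RIG-I and MDA5, had 30.07 and 28.8 CPM in controls and 26.2 and 30.03 CPM in *Cnot3*-cKO cells. The log2 fold changes of *Mavs*, *Tbk1* and *Irf3* were -0.07, -0.05 and 0.23, and none passed. *Traf3*, which links MAVS to TBK1, fell by 0.34 on the log2 scale (adjusted p = 0.0404), but did not pass in 3 of the 4 fits without 1 library (from 0.0703 to 0.25) or in 3 of the other scalings (from 0.0609 to 0.338). Of 21 tested genes in this list, 3 were called higher, against the same 4.03%. They included *Tlr7* (log2 fold change 1.53) and *Tlr13* (1.52), endosomal receptors of RNA. Among feedback inhibitors the phosphatase gene *Ptpn6* was called higher (1.60), and *Socs1* had a log2 fold change of -0.21 and did not pass. Of 51 other interferon-stimulated genes tested, 14 were called higher, 31 rose and 0 fell, with a median of 0.95, against 4.03%, 11.1% and 9.46% of all tested genes and their median of 0.01. Their log2 fold changes were 1.87 for *Samd9l*, 1.75 for *Gbp9*, 1.68 for *Ifi203*, 1.62 for *Iigp1*, 1.60 for *Gbp7* and *Nlrc5*, 1.52 for *Herc6*, 1.46 for *Trim30a* and *Slfn5*, 1.32 for *Lgals3bp*, 1.24 for *Trim34a*, 1.21 for *Ddx60*, 1.17 for *B2m* and 1.11 for *Parp9*. Without the first *Cnot3*-cKO library the adjusted p was 0.0666 for *Ifi203* and 0.0515 for *Trim34a*. Other annotated genes lie over 11.3% of the exon bases of *Gbp7* and 13.7% of those of *Herc6* on the same strand, and over 23.5% of those of *Trim34a* on the opposite strand. The 31 that rose include *Oas1g* (11 and 25 control reads) and *Gbp6* (25 and 8), tested only through their *Cnot3*-cKO reads.

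Markers of other testis cells moved with the same groups. In a bulk library, fewer cells of a type and less RNA per cell cannot be told apart. The counts below stand beside 4.03% of all tested genes called higher and 0.735% called lower, with 11.1% that rose and 9.46% that fell. Germ cell markers were high in both groups, with summed levels of 4786 and 5114 CPM in controls and 4301 and 4517 CPM in *Cnot3*-cKO cells, and *Dazl* was the highest of them. Of the 10 markers 3 fell, *Nanos3*, which was called lower (log2 fold change -1.07, adjusted p = 0.00118), *Zbtb16* (-0.82, adjusted p = 0.000193) and *Sall4* (-0.42, adjusted p = 0.00656). Outside these 10, *Id4*, the gene of the sorted reporter, had 20.6 and 19.7 CPM in controls and 36.3 and 46.3 CPM in *Cnot3*-cKO cells. It was called higher (log2 fold change 1.04, adjusted p = 0.000405). *Gfra1*, which the study uses as an SSC marker, rose as well (0.90, adjusted p = 3.68e-05). Both were added after their values were seen. Macrophages express much of the interferon pathway. Of 13 macrophage markers 10 were called higher and 11 rose, and their summed level was 314 and 200 CPM in controls and 690 and 565 CPM in *Cnot3*-cKO cells. None was at 0, and *Mrc1* was the highest. Between the controls, the first was above the second in all 13 macrophage markers, by a median of 0.66 on the log2 scale. The first control was above the second in 11 of the 16 interferon genes that rose and in 7 of the 12 Sertoli markers. The share of all tested genes with the first control above was not counted, so these counts lack a background. The median difference was 0.12 over all 16 and 0.03 over all 12. Sertoli markers (11 of 12 called higher) summed to 370 and 383 CPM in controls and 1138 and 1105 CPM in *Cnot3*-cKO cells. Leydig markers (4 of 5 called higher, *Insl3* at 0 in every library) summed to 368 and 322 CPM against 831 and 896 CPM. *Jak3* lies over 64.8% of the exon bases of *Insl3* on the same strand, so the count of *Insl3* is uncertain. Endothelial markers (2 of 6 called higher) summed to between 21.6 and 24.3 CPM against 36.4 and 41.1 CPM, and peritubular myoid markers (0 of 7 called and 1 rose in edgeR) to 14.7 and 17.1 CPM against 21.7 and 26.8 CPM. Markers of T, NK and B cells summed to between 1.76 and 2.40 CPM against 1.99 and 3.14 CPM, with *Nkg7* at 0 in every library. Genes of the response to tissue dissociation (4 of 14 called higher) summed to 133 and 128 CPM against 200.1 and 237 CPM. The part of these cells and of dissociation in the changes of the interferon genes was not tested.

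**Figure D5:**
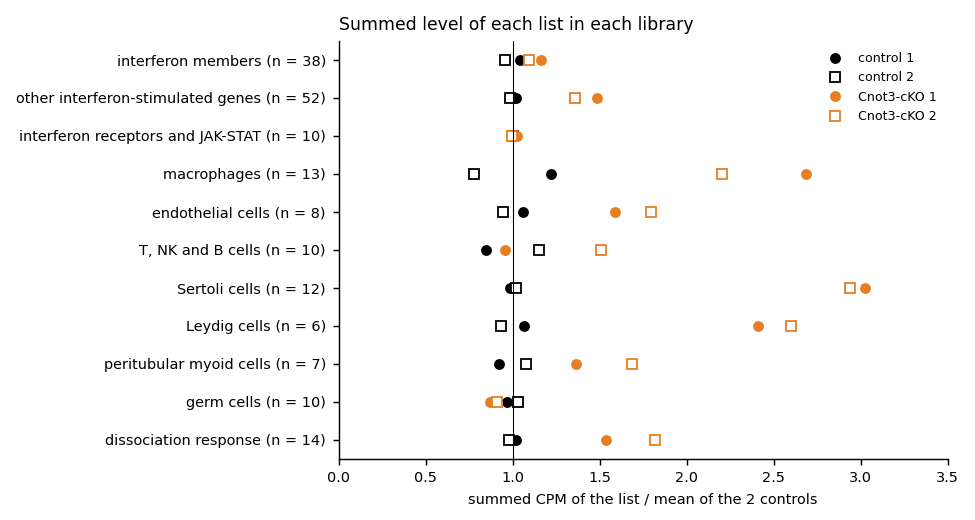
Summed CPM of each list in each library, divided by the mean of the 2 controls (horizontal axis, 1 marks the control mean). Each symbol is 1 library. The 38 interferon genes, led by *Irf1* and *Adar*, lie near 1 in every library, and the macrophage, Sertoli and Leydig lists lie above 2 in both *Cnot3*-cKO libraries.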

How the data were processed

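RNA-seq libraries of sorted ID4-EGFP+ cells, 2 per group, were analysed. The deposited values were read counts per gene symbol, not normalized, which the authors made with STAR on mm10 and featureCounts on GENCODE annotation from stranded total RNA libraries. How reads that match several genes, or either strand, were counted is not given in the sources used here. Depth ranged from 22192964 to 43378493 reads, and 3 counts was taken as the floor.

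Libraries were grouped by their genotype label. *Cnot3*-cKO was compared with control by the quasi-likelihood F test of edgeR 4.0.16 in R 4.3.3, with TMM scaling, its default expression filter and Benjamini-Hochberg adjustment over 23952 genes (biological coefficient of variation 0.145). Standard errors were derived from the F statistic. DESeq2 1.42.0, other scalings and filters, a replicate block and leaving out each library were alternatives. The members of the list, the pathway lists and the marker lists were chosen with earlier results of these data known. Genes were named when they passed at an adjusted p under 0.05 or averaged at least 10 CPM, together with 10 others of the same roles, called pathway genes, interferon receptors and adaptors. Some pathway genes that the rule names are not reported here. Exon lengths, overlaps and coordinates came from GENCODE on GRCm38, the assembly also called mm10. Promoter windows came from RefSeq on GRCm38.p6. Shared sequence was counted in 50-base windows of the transcripts. Tested on simulated data with 200 genes changed 4-fold, edgeR recovered 173 with the correct sign and called 0 of the unchanged genes. The simulation covered the 23952 genes of this comparison, and the changed ones were drawn from genes averaging at least 1 CPM. It does not describe recovery at lower levels or of smaller changes.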

Additional observations from a re-analysis of the deposited data

How the results depend on the processing

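The 9 genes called higher became 6 to 12 under other scalings, filters, DESeq2, thinning to the smallest library (chosen after seeing the data) and the fits without 1 library, and *Oasl2* was called lower in all of these. All 9 passed at an adjusted p under 0.05 in every fit without 1 library, and 11 of the 16 that rose did. Testing against a fold change of 2 (glmTreat) left 0 genes called higher, 0 called lower and 0 pathway genes called higher. Scaling to germ cell markers moved the median of all genes from 0.01 to 0.17 on the log2 scale, left 1 gene lower at an adjusted p under 0.05, as *Adar* did not pass, and turned *Irf1* to 0.0424. Directions of genes near 0 were not stable. *Dhx58* had -0.00925 after thinning and -0.36 to 0.32 without 1 library, and *Oasl1* had -0.0122 with RLE factors, -0.0272 without a filter, -0.0277 in DESeq2 and -0.23 to 0.25 without 1 library. The fits without 1 library gave -0.0487 to 0.17 for *Stat2*, -0.0301 to 0.22 for *Irf9* and -0.0280 to 0.30 for *Trim25*. The cause was not tested. *Oas3* passed with library sizes only, with germ cell scaling, without a filter and after thinning, and without a filter *Ifit1* passed and *Mx1* did not. The pathway genes called higher numbered 14 without the first *Cnot3*-cKO library and 30 without the first control. With the replicate number as a replicate block, 9 genes were called higher and 1 lower, 23 pathway genes were called higher, and 1155 genes in all were called higher and 217 lower, against 965 and 176 without it. Deviations of libraries with the same number correlated at 0.04 over the tested genes. The labels do not say whether such libraries share a litter or a sort, and this correlation cannot decide it. Genes under 1 CPM in controls rest on few reads, which limits the precision of *Oas2*, *Ifit3*, *Rtp4* and *Xaf1*.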
